A study of Mus musculus with 15 samples.

Results

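The transcripts of 8 genes of airway neurons and glia were followed across 5 groups of embryonic mouse lungs: Phox2a, Ret, Gfra1, Sox10, Elavl3, Elavl4, Tubb3 and Stmn2. They were chosen by gene symbol as listed markers of this small cell population, and they are 8 of the 23420 genes in each count table. Which cells of the lung their reads came from was not tested, so each rise or fall is one of the whole lung. All lungs came from wild type CD1 mouse embryos and were lysed whole, so the RNA mixes epithelium, mesenchyme, vessels, nerves and any tissue left attached. Lungs explanted at stage E12.5 (in days of gestation) were cultured for 48 h under high or under low transmural pressure, the pressure across the airway wall. Other lungs were taken fresh at that stage, at E13.5 or at E14.5. Each group holds 3 RNA libraries. A low pressure or E12.5 library pooled 6 lungs, and a high pressure, E13.5 or E14.5 library pooled 3 lungs. Separate litters within a group are not stated in the labels, so p-values measure the spread between these pools, which may be technical.

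The intrinsic neurons of the airway arise from neural crest cells that leave the foregut and follow the growing airway tubules and their smooth muscle. Glial cell line-derived neurotrophic factor (GDNF), made by the surrounding mesenchyme, binds the co-receptor GFRA1, and the pair signals through the receptor tyrosine kinase RET in crest cells and young neurons. PHOX2A is a homeodomain factor of autonomic neurons, and SOX10 is the transcription factor that marks crest cells and their glia. ELAVL3 and ELAVL4 are neuronal RNA-binding proteins, TUBB3 is the class III beta-tubulin of neurons, and STMN2 is a stathmin that regulates microtubules in growing axons.

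Total counts were 40167255 to 44341263 per high pressure library, 31843739 to 38288861 per low pressure library and 18837343 to 21955244 per fresh library. Low pressure replicate 3 had counts in 14637 genes, against 16465 to 16729 in the other 14 libraries. Ribosomal protein genes took 2.92% to 3.20% of counts in high pressure and 1.86% to 2.10% in low pressure libraries. Among fresh lungs they took 3.41%, 3.80% and 4.13% in replicate 1 of E12.5, E13.5 and E14.5, and 1.69% to 2.15% in replicates 2 and 3. Levels below are CPM, read counts scaled to library size on a common TMM scale over all 15 libraries, and adjusted p-values come from edgeR's quasi-likelihood test over all genes tested, with a threshold of 0.05.

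Every member was detected in every library and passed the filter on low counts. Per kilobase of exon, Gfra1 stood highest in every group, with group means of 5.47 to 9.99 CPM per kb, and Stmn2 came next by group mean with 2.25 to 3.49. Stmn2 overlapped Ret in the low pressure libraries, Elavl4 and Tubb3 at E12.5, and Tubb3 at E13.5. Ret, Elavl4 and Tubb3 followed, with group means of 0.776 to 2.13 CPM per kb, and in the fresh groups the Tubb3 libraries overlapped those of Ret and of Elavl4. Sox10, Elavl3 and Phox2a were the lowest, with group means of 0.143 to 0.756 CPM per kb, and their order changed between groups. Phox2a rested on 13 to 69 reads in each cultured library and on 1 to 17 reads in each fresh library, so read depth limits its values.

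**Figure D1:**
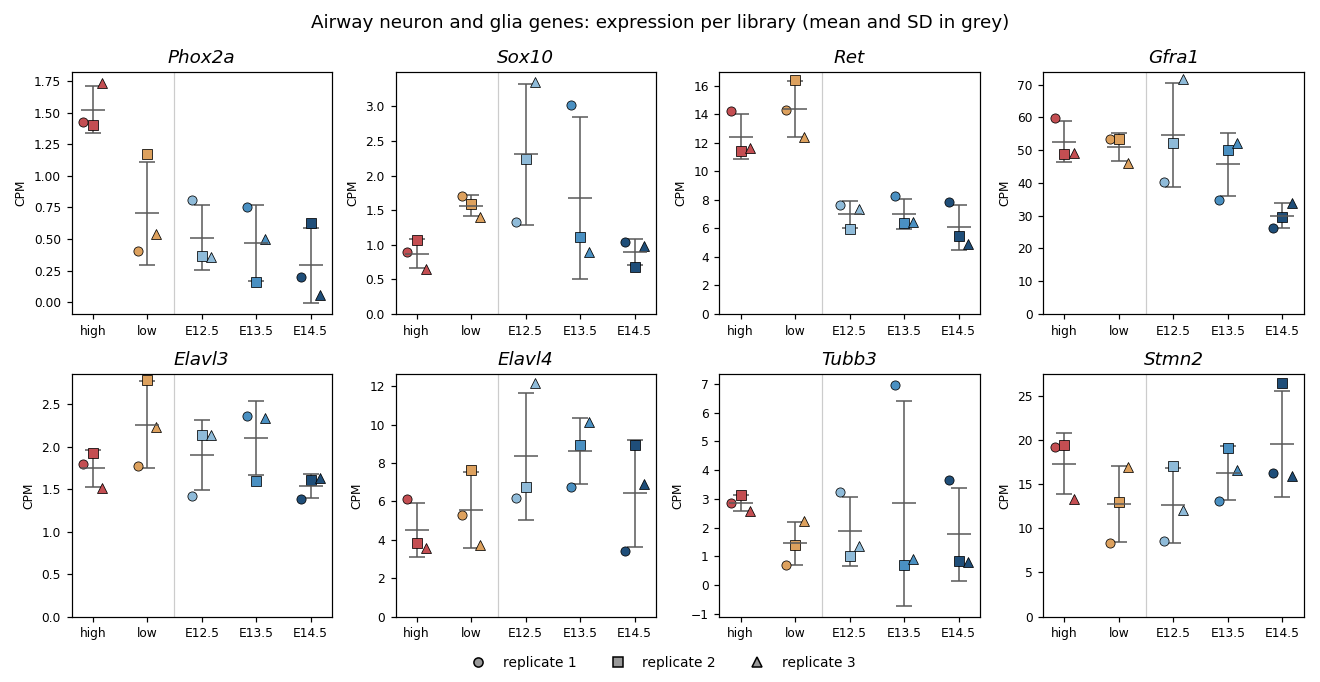
Level of each of the 8 genes in CPM (y axis, linear) in each library of the 5 groups (x axis), with the group mean and SD over 3 libraries. Ret is higher in both cultured groups than in every fresh library, and Gfra1 at E14.5 lies below every E12.5 and E13.5 library.

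The members lie on 8 different chromosomes of mm10 in the GENCODE M21 annotation. Phox2a spans 101818313 to 101822726 of chromosome 7 on the plus strand, and 95 of its exon bases also belong to Inppl1 on the opposite strand. Tubb3 spans 123411424 to 123422015 of chromosome 8 on the plus strand. Gfra1 spans 58235604 to 58455909 of chromosome 19 on the minus strand, and 416 of its exon bases are shared with the antisense gene Gm16277. Ret lies at 118151745 to 118197718 of chromosome 6, minus strand. Sox10 lies at 79154908 to 79165240 of chromosome 15, minus strand. Elavl4 lies at 110203722 to 110351909 of chromosome 4, minus strand. Elavl3 lies at 22015005 to 22052023 of chromosome 9, minus strand, and shares 256 exon bases with Gm49318 on the same strand. Stmn2 lies at 8509360 to 8561606 of chromosome 3, plus strand. Whether strand was used in the counting is not stated by the labels, and reads from shared bases cannot be assigned to either gene.

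The promoters of Phox2a and Tubb3 are shown because both genes had all high pressure libraries above all low pressure libraries, and that of Gfra1 because it had the smallest adjusted p of the 8 genes between stages. Each runs 5′ to 3′ along the gene's own strand over 300 bases, 250 before to 50 after the annotated start (RefSeq, GRCm38.p6), and capitals mark matches to CAGCTG, an E-box, and TATAA, the core of a TATA box.
Phox2a, chr7:101818063-101818362, plus strand: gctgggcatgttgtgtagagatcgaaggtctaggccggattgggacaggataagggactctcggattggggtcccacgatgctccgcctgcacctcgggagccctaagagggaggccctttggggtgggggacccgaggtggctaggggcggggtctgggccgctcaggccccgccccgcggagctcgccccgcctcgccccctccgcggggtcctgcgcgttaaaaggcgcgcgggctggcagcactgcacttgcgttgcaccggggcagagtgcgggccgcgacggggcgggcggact
Tubb3, chr8:123411303-123411602, plus strand: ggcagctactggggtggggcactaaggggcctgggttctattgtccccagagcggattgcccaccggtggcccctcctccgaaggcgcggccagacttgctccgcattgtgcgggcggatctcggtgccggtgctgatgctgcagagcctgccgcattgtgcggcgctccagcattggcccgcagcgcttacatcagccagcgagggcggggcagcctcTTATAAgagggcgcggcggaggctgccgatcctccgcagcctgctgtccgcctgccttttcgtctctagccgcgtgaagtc
Gfra1, chr19:58455349-58455648, minus strand: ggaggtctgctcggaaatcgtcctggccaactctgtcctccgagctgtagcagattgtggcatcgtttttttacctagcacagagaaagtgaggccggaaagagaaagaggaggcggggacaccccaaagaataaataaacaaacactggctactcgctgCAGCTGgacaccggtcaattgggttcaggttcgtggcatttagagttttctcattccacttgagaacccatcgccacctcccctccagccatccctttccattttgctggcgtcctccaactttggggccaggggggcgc

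Both strands were searched, and the motifs were chosen after the sequences had been read. The Tubb3 window holds TATAA on each strand, starting 31 and 30 bases before the start and overlapping, the Gfra1 window holds CAGCTG starting 90 bases before it, and neither motif occurs in the Phox2a window. Over 32851 RefSeq promoters of this length, 16.3% hold CAGCTG and 24.9% hold TATAA. A match describes the letters only.

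High against low pressure compared separate pools of explants at the end of 48 h and asks how airway pressure bears on the developing lung. None of the 8 neuron and glia genes passed edgeR's test, none had an unadjusted p under 0.05 and none passed with DESeq2, while 26.1% of the 14937 genes tested passed in edgeR. The fitted level of Phox2a was 2.15 times and that of Tubb3 1.98 times as high in high pressure lungs, and that of Sox10 was 0.560 times as high, each with no overlap between the groups and with an interval that included 0. The receptor genes Ret and Gfra1 had the smallest estimated differences. The median log2 difference of the 8 genes was -0.08, against 0.01 over all genes tested. In whole lungs, fewer cells of a type and less RNA per cell cannot be told apart.

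Among the regulators, Phox2a had 1.429, 1.404 and 1.735 CPM in high pressure lungs, against 0.403, 1.17 and 0.543 CPM in low pressure lungs. All high pressure libraries lay above the highest low pressure library, and the low pressure libraries differed among themselves by more than the high pressure ones did. The log2 difference was 1.102 (SE 0.55, 95% interval -0.14 to 2.34, adjusted p = 0.169). Sox10 had 0.899, 1.06 and 0.654 CPM in high pressure lungs, against 1.71, 1.58 and 1.405 CPM in low pressure lungs. The groups did not overlap, and the log2 difference of -0.84 (SE 0.45, 95% interval -1.86 to 0.19) had an adjusted p of 0.201.

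The receptor genes had overlapping levels under the 2 pressures. Ret had 14.3, 11.4 and 11.6 CPM in high pressure lungs, against 14.3, 16.4 and 12.4 CPM in low pressure lungs, and the groups overlapped. Its log2 difference was -0.21, with a 95% interval of -0.58 to 0.17. Gfra1 had 59.8, 48.8 and 49.0 CPM in high pressure lungs, against 53.5, 53.3 and 46.2 CPM in low pressure lungs, also overlapping. Its log2 difference of 0.05 had the narrowest interval of the 8 genes, -0.23 to 0.32.

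Of the cytoskeletal genes, Tubb3 had 2.86, 3.15 and 2.56 CPM in high pressure lungs, against 0.713, 1.403 and 2.23 CPM in low pressure lungs. Low pressure replicate 3 was the nearest to the high pressure group, and the log2 difference was 0.98 (SE 0.44, 95% interval -0.02 to 1.98, adjusted p = 0.131). Stmn2 had 19.2, 19.5 and 13.3 CPM in high pressure lungs, against 8.37, 13.0 and 16.9 CPM in low pressure lungs, and the groups overlapped. Without low pressure replicate 3, the library with the fewest genes detected, Tubb3 (1.42, adjusted p = 0.0104) and Stmn2 (0.70, adjusted p = 0.0341) passed the test as higher, while 41.1% of all genes passed. The share of ribosomal protein counts, given above, moved with the pressure groups, and its part in these values was not tested.

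The neuronal RNA-binding genes had overlapping groups. Elavl3 averaged 1.74 ± 0.214 CPM in high pressure and 2.26 ± 0.506 CPM in low pressure lungs (SD, n = 3 each), a log2 difference of -0.37 with a 95% interval of -1.16 to 0.42. Elavl4 averaged 4.49 ± 1.41 CPM in high pressure and 5.54 ± 1.98 CPM in low pressure lungs (SD, n = 3 each), a log2 difference of -0.30 with a 95% interval of -1.06 to 0.46. Across the 8 genes, 3 had groups without overlap, against 46.8% of all genes tested.

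**Figure D2:**
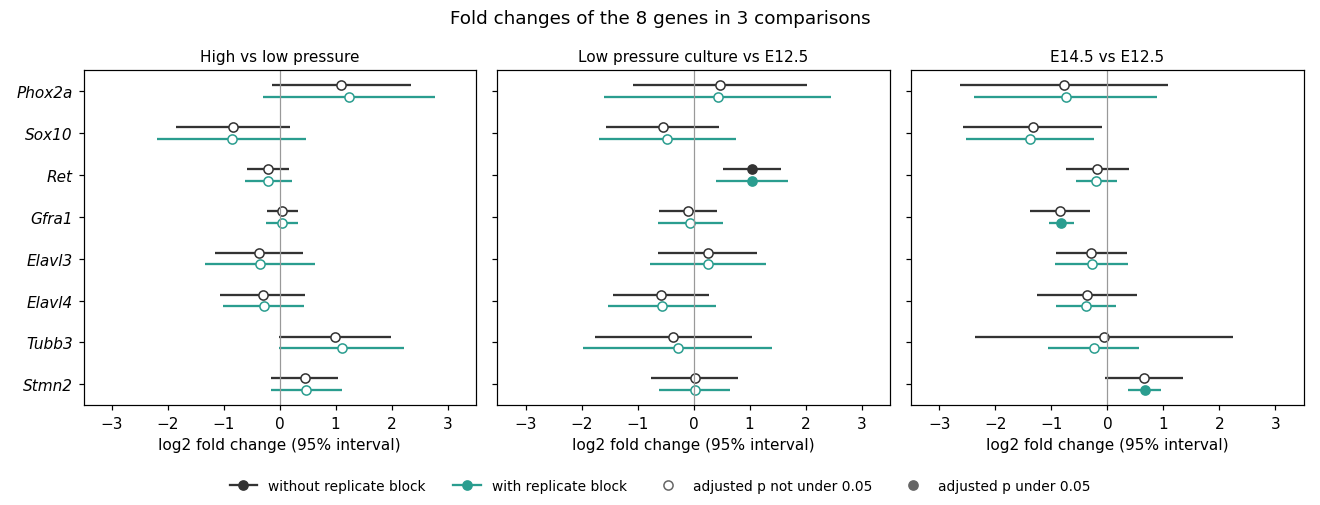
Log2 difference (x axis) of each of the 8 genes with its 95% interval (bars) for high against low pressure, low pressure culture against E12.5, and E14.5 against E12.5, each drawn without and with a block for the replicate number (filled points have an adjusted p under 0.05). Every interval spans 0 for high against low pressure without the block, and Ret is the gene whose intervals lie above 0 for low pressure culture against E12.5.

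Low pressure culture against E12.5 sets lungs after 48 h outside the embryo beside lungs of the stage they were taken at. Ret was about double in the cultured lungs and was the only one of the 8 genes to pass the test, beside 26.7% of the 14501 genes tested. It was also the only one without overlap between the groups, beside 47% of genes. The other 7 genes had intervals that spanned 0. The groups also differ in count table and in sequencing depth, and these cannot be told apart from culture. Oesophagus and stomach genes summed to 5.89 to 7.85 CPM after low pressure culture, against 2.34 to 2.94 CPM at E12.5, and 2 of 4 rose (Krt4 and Barx1). Krt4 had 0.416 to 0.958 CPM after culture and no read at E12.5. Heart and striated muscle genes summed to 24.6 to 39.1 CPM after culture, against 37.1 to 51.4 CPM at E12.5, and 1 of 9 rose (Myog, 0.883 to 2.39 CPM after culture, against at most 0.0509 CPM at E12.5). Lung identity genes had 1 risen and 2 fallen of 12. The part of these tissues in the values below was not tested.

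Ret had 14.3, 16.4 and 12.4 CPM after low pressure culture, against 7.63, 5.93 and 7.37 CPM at E12.5. Every cultured library lay above every E12.5 library, and the high pressure libraries, at 11.4 to 14.3 CPM, were also above the highest fresh library of any stage, 8.25 CPM. The log2 difference of low pressure over E12.5 was 1.05 (SE 0.23, 95% interval 0.53 to 1.57, adjusted p = 0.0130). The call was lost without E12.5 replicate 2 (0.93, adjusted p = 0.0760), without low pressure replicate 1 (1.05, adjusted p = 0.0531) and without low pressure replicate 2 (0.95, adjusted p = 0.0658). Over all alternatives tried its adjusted p lay between 0.000824 with DESeq2 and 0.0760.

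The co-receptor gene Gfra1 averaged 51.0 ± 4.19 CPM after low pressure culture and 54.7 ± 15.8 CPM at E12.5 (SD, n = 3 each), a log2 difference of -0.10 with a 95% interval of -0.61 to 0.42. Stmn2 averaged 12.7 ± 4.26 CPM after culture and 12.6 ± 4.28 CPM at E12.5 (SD, n = 3 each), and its log2 difference was 0.02. The remaining differences ran from -0.59 for Elavl4 to 0.48 for Phox2a, with adjusted p-values of 0.276 to 0.694.

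The series of 3 fresh stages asks how the genes vary over 2 days of normal growth. E12.5 libraries pooled 6 lungs and later ones 3, which cannot be told apart from stage in comparisons with E12.5. Gfra1 fell over the stages and Stmn2 increased in the fit with the replicate number as a block, and neither passed without the block. The block is given beside the plain fit because same-numbered libraries of the 3 stages deviated together, though their correlations overlapped those of different-numbered libraries. Without it, 0% of 14242 genes passed in any stage comparison (for E14.5 against E12.5, DESeq2 called 457 genes and none of the 8, and 1328 genes had an unadjusted p under 0.05, 2 of the 8 among them). With it, 11% passed for E14.5 against E12.5, and the 8 genes had a median log2 difference of -0.33, against -0.0034 over all genes. Gfra1 and Sox10 had no overlap between E14.5 and E12.5, beside 14.1% of genes.

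Gfra1 had 40.3, 52.2 and 71.6 CPM at E12.5, 34.7, 50.03 and 52.2 CPM at E13.5, and 26.3, 29.6 and 33.9 CPM at E14.5, in the order of the replicate numbers. All E14.5 libraries lay below all earlier ones, and replicate 1 was the lowest at each stage. For E14.5 against E12.5 the log2 difference was -0.85 (SE 0.23, adjusted p = 0.227) without the block and -0.83 (SE 0.10, 95% interval -1.05 to -0.60, adjusted p = 0.00148) with it, lower in 3 of 3 numbered pairs. Without replicate 1 of every stage, a setting with no block, it was -0.94 (adjusted p = 0.00891). By single days, with the block, Gfra1 fell for E14.5 against E13.5 (-0.57, SE 0.10, adjusted p = 0.0107, where 6.01% of genes passed) but did not pass for E13.5 against E12.5 (-0.25, SE 0.10, adjusted p = 1, where 0.00702% of genes passed). The difference between the daily steps was -0.32 (SE 0.18, adjusted p = 0.710, where 0.0211% of genes passed), so a faster fall on the second day was not shown.

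Stmn2 had 8.58, 17.1 and 12.1 CPM at E12.5, 13.0, 19.1 and 16.6 CPM at E13.5, and 16.3, 26.5 and 15.9 CPM at E14.5. The stages overlapped, while within each replicate number the E14.5 library was above the E12.5 library. The log2 difference of E14.5 over E12.5 was 0.65 (SE 0.31, adjusted p = 0.601) without the block and 0.66 (SE 0.14, 95% interval 0.37 to 0.96, adjusted p = 0.0117) with it. Without replicate 1 of every stage it was 0.56 and did not pass (adjusted p = 0.257).

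Sox10 had 1.33, 2.23 and 3.36 CPM at E12.5, 3.02, 1.12 and 0.895 CPM at E13.5, and 1.03, 0.676 and 0.977 CPM at E14.5. The E14.5 libraries all lay below the E12.5 libraries, while E13.5 spanned both, with replicate 1 the highest there. Its log2 difference of E14.5 over E12.5 was -1.38 (SE 0.51, 95% interval -2.53 to -0.23, adjusted p = 0.113) with the block and -1.34 (adjusted p = 0.478) without. It passed once replicate 1 of every stage was left out (-1.73, adjusted p = 0.0261).

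Tubb3 had 3.22, 1.003 and 1.37 CPM at E12.5, 6.94, 0.691 and 0.895 CPM at E13.5, and 3.65, 0.832 and 0.814 CPM at E14.5. Replicate 1 was the highest at every stage, the same replicate in which ribosomal protein genes took their largest share of counts, and the part of that share in the Tubb3 values was not tested. Between stages the Tubb3 groups overlapped, with a log2 difference of -0.25 (95% interval -1.06 to 0.57) for E14.5 over E12.5 with the block.

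**Figure D3:**
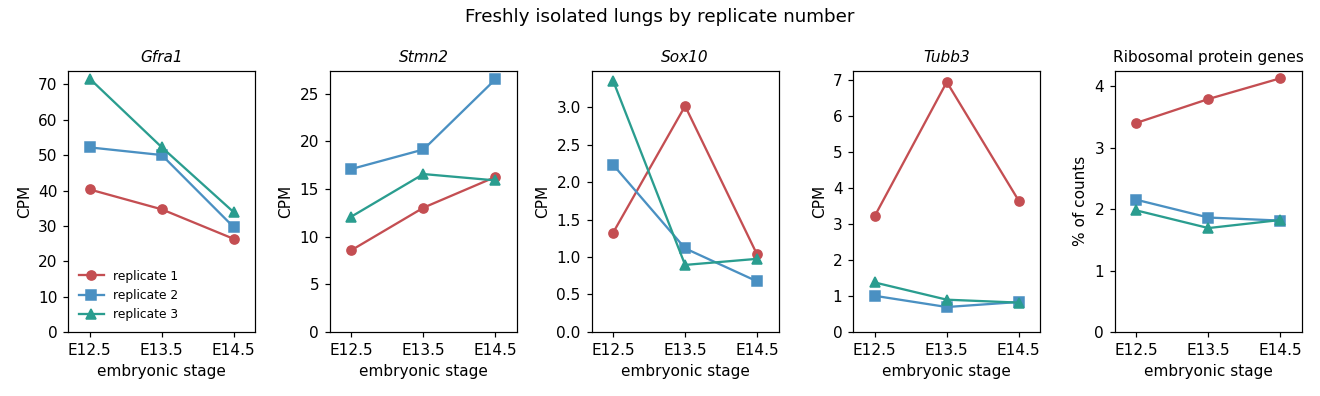
Level in CPM (y axis) of Gfra1, Stmn2, Sox10 and Tubb3, and percent of counts in ribosomal protein genes, at the 3 fresh stages (x axis), with a line for each replicate number. Gfra1 declines along all 3 lines, Stmn2 ends higher than it began along all 3, and replicate 1 of Tubb3 lies above the other two at each stage.

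The other members had overlapping stages. Ret held 7.63, 5.93 and 7.37 CPM at E12.5, 8.25, 6.38 and 6.42 CPM at E13.5, and 7.88, 5.46 and 4.94 CPM at E14.5, with a log2 difference of -0.20 (95% interval -0.56 to 0.17) for E14.5 over E12.5 with the block. Elavl3 averaged 1.90 ± 0.414 CPM at E12.5, 2.10 ± 0.437 CPM at E13.5 and 1.54 ± 0.139 CPM at E14.5, and Elavl4 averaged 8.35 ± 3.30, 8.61 ± 1.72 and 6.41 ± 2.80 CPM at the same stages (SD, n = 3 each). Phox2a was highest in replicate 1 at E12.5 and E13.5 and in replicate 2 at E14.5. Its interval for E14.5 over E12.5 with the block was the widest of the 8, -2.37 to 0.89 in log2. Without the block that of Tubb3 was the widest, -2.36 to 2.24.

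Heart and striated muscle genes, markers of another tissue, moved with the stages. Their 10 listed genes summed to 37.1 to 51.4 CPM per library at E12.5, 32.6 to 130 CPM at E13.5 and 400 to 1675 CPM at E14.5. Against E12.5, 5 of 9 tested genes passed as higher at E14.5 with the block, with a median log2 difference of 4.90. Without replicate 1 of every stage 0 passed, while the median log2 difference was 5.52. All 9 had no overlap between E14.5 and E12.5, beside 14.1% of genes. Their part in the stage results was not tested.

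Further genes were read from 6 lists, chosen with earlier results of these data known, so their counts are descriptions. Levels differed widely within the lists. Across the libraries Sox11 had 166 to 1026 CPM and Unc5c 265 to 484 CPM, while Gal had 0.109 to 2.80 CPM. The member Phox2a had 0.0543 to 1.73 CPM. Which cells the reads of a listed gene came from was not tested, so each rise or fall below is one of the whole lung. For high against low pressure, 12.2% of all genes fell and 14% rose. Of the autonomic neuron regulators, 5 of 12 fell and 0 rose, with a median log2 difference of -0.68. Isl1, a LIM-homeodomain factor of motor and sensory neurons, had 8.57, 8.86 and 9.75 CPM in high pressure lungs, against 22.3, 28.2 and 26.0 CPM in low pressure lungs (-1.49, SE 0.14, adjusted p = 0.000608). Gata3 (-2.01), Sox11 (-0.85) and Sox4 (-0.42) were also among those that fell. Without low pressure replicate 3, 2 rose and 6 fell, where 41.1% of all genes passed.

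Among 24 pan-neuronal genes, 4 rose and 4 fell. Prph, the intermediate filament peripherin of peripheral neurons, had 15.4, 14.8 and 12.47 CPM in high pressure lungs, against 2.11, 3.48 and 4.88 CPM in low pressure lungs (2.03, SE 0.29, adjusted p = 0.00231). L1cam, an adhesion molecule of axons, rose by 1.11, Celf4 by 0.99 and Rtn1 by 0.83 on the log2 scale. Dcx, the microtubule protein doublecortin of migrating neurons, fell by 1.11, Cntn2 by 1.02, Map2 by 0.84 and Ncam1 by 0.52. Without low pressure replicate 3, 6 rose and 6 fell of 24, where 41.1% of all genes passed.

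Of the GDNF family and neurotrophin genes, 0 rose and 3 of 16 fell. The neurotrophin receptor genes Ntrk3 (-1.90, SE 0.22, adjusted p = 0.00119) and Ntrk2 (-1.65, SE 0.22, adjusted p = 0.00193) fell under high pressure, as did the persephin co-receptor gene Gfra4 (-0.85). Of 17 axon guidance genes, 6 fell and 1 rose. The netrin receptor gene Dcc (-1.53), its ligand gene Ntn1 (-0.81), Robo2 (-0.77), Robo1 (-0.68), Unc5c (-0.67) and Slit3 (-0.44) fell, and Sema3c, a semaphorin gene, rose by 0.41. Without low pressure replicate 3 the neurotrophin list had 4 risen and 4 fallen genes of 16 and the guidance list 2 risen and 8 fallen of 17, where 41.1% of all genes passed.

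The list of glia and crest genes showed 2 risen and 1 fallen of 15 tested. Erbb3, a neuregulin receptor gene listed for Schwann cell precursors, rose by 0.64 and Mpzl2 by 1.03, while Tfap2a fell by 1.70 on the log2 scale. Erbb3 had 92.6 to 113 CPM in high pressure lungs, where Sox10 had 0.654 to 1.06 CPM. Whether the Erbb3 and Mpzl2 reads came from glia or from other lung cells was not tested. Of 15 transmitter and neuropeptide genes, Slc18a2, the vesicular monoamine transporter, fell (-1.97, adjusted p = 0.0478) and the other 14 did not pass.

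Genes listed for other cells or tissues moved with the same contrast. Neuroendocrine genes, some of which are also in the regulator list, summed to 212 to 226 CPM in high pressure lungs, against 354 to 379 CPM in low pressure lungs, and 4 of 10 fell. Most of that sum came from Meis2, Nnat and Cplx2, and Chga, among those that fell, had overlapping groups. Olig2, a defining gene of the central nervous system list, was at 0 in all 15 libraries. Sensory ganglion genes had 1 risen (P2rx2, 1.71, adjusted p = 0.00257) and 1 fallen (Isl1, given above) of 6, with a median of 0.07. Their sum, 20.4 to 25.3 CPM in high pressure lungs against 28.4 to 34.4 CPM in low pressure lungs, was lower mainly through Isl1. Oesophagus and stomach genes went the other way by sum, 12.8 to 14.8 CPM in high against 5.89 to 7.85 CPM in low pressure lungs. Of 4 tested, 2 rose (Muc5ac 2.87 and Pgc 2.08), and whether their reads came from attached gut or from lung cells was not tested. Krt4 was higher (1.96, adjusted p = 0.0820) and Barx1 lower (-0.93, adjusted p = 0.0599), neither past the threshold. Lung identity genes had 6 risen and 3 fallen of 12, among them the surfactant gene Sftpc (4.86) and the epithelial cadherin gene Cdh1 (1.38), both risen. Melanocyte genes had 1 fallen of 4 (Kit), and heart and striated muscle genes 1 fallen of 9 (Ryr2). The part of these cells in the list counts was not tested.

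**Figure D4:**
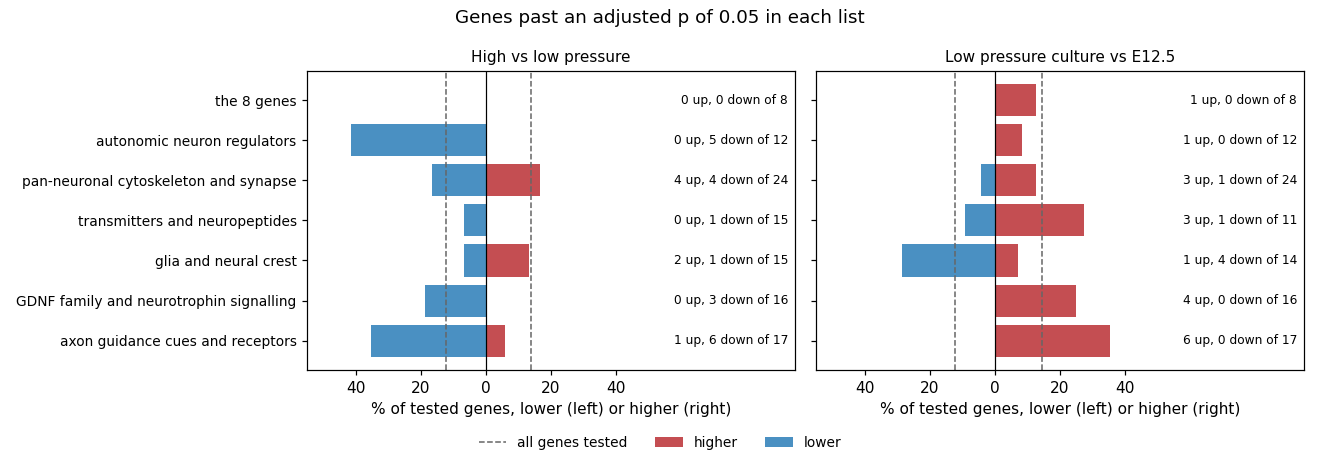
Percent of tested genes (x axis) past an adjusted p of 0.05 and higher (right, red) or lower (left, blue) in the 8 genes and in each of 6 lists, for high against low pressure and for low pressure culture against E12.5. Dashed lines mark the percent of all genes tested, and the regulators under high pressure have 5 of 12 lower.

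After low pressure culture against E12.5, 2106 of 14501 genes rose and 1762 fell. GDNF family and neurotrophin genes had 4 risen and 0 fallen of 16. Ntrk2 had 26.9, 26.6 and 32.4 CPM after culture, against 3.70, 4.06 and 3.92 CPM at E12.5 (2.88, SE 0.21, adjusted p = 0.000201). Ntrk3 (2.06), Gfra2, the neurturin co-receptor gene (1.75), and its ligand gene Nrtn (2.31) also rose. Nrtn lost its call without low pressure replicate 3 and without E12.5 replicate 1. Of 17 guidance genes, 6 rose and 0 fell, among them Plxna4 (1.39), Slit2 (1.03) and Dcc (1.20). Without E12.5 replicate 1, the guidance list had 7 risen and 1 fallen, where 40.4% of all genes passed, and without low pressure replicate 3 it had 3 risen, where 20.7% passed.

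Glia and crest genes had 1 risen and 4 fallen of 14. Fabp7, a fatty acid-binding protein of immature glia, had 1.02, 0.701 and 0.415 CPM after low pressure culture, against 4.27, 4.42 and 8.04 CPM at E12.5 (-2.95, SE 0.46, adjusted p = 0.00401). Ednrb, the endothelin receptor gene of crest cells that many other cells also express, fell by 1.29, Ngfr by 0.80 and Zeb2 by 0.70, while Tfap2a rose by 2.82. Without E12.5 replicate 1, 2 of 15 glia and crest genes rose and 7 fell, where 40.4% of all genes passed. Autonomic regulators had 1 risen gene of 12 (Tbx3, 0.69), a call lost without low pressure replicate 3. Pan-neuronal genes had 3 risen (Prph 2.05, Ncam1 1.38 and Scg2) and 1 fallen (Tubb2b, -0.90) of 24, and Tubb2b lost its call without low pressure replicate 3 and without E12.5 replicate 1. Transmitter genes had 3 risen (Nos1, Calca and Slc5a7) and 1 fallen (Ddc, -1.13) of 11.

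For E14.5 against E12.5 with the block, 7.33% of all genes rose and 3.63% fell. GDNF family and neurotrophin genes had 3 risen and 2 fallen of 15. Gfra2 had 30.6, 25.3 and 21.4 CPM at E14.5, against 11.1, 11.3 and 6.97 CPM at E12.5 (1.41, SE 0.14, adjusted p = 0.000516), the opposite direction to Gfra1. Ntrk2 (1.01) and Dok4 (0.46) rose too, while the neurotrophin genes Ntf3 (-1.06) and Bdnf (-0.92) fell. Without replicate 1 of every stage, this list had 1 risen (Gfra2) and 1 fallen (Ntf3).

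Regulators had 2 fallen of 12 (Sox11 -0.72 and Isl1 -1.01) and 0 risen. Pan-neuronal genes had 2 fallen of 23 (Dcx -0.65 and Cntn2 -1.06) and 0 risen. Glia and crest genes had Ednrb risen (0.44) and Tfap2b fallen (-2.41) of 17, and transmitter genes had Calca risen (1.64) and the neuropeptide gene Gal fallen (-2.78) of 9. Guidance genes had 3 risen (Plxna4 1.37, Slit2 0.78 and Nrp1 0.62) and 2 fallen (Epha4 -0.41 and Unc5c -0.27) of 17. Without replicate 1 of every stage, glia and crest genes had 3 risen and 2 fallen, regulators 3 fallen and guidance genes 3 risen and 0 fallen, where 7.87% of all genes passed.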

How the data were processed

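Whole-lung RNA of 15 pools in 5 groups was sequenced. Per the submitters' processing notes, cutadapt 1.6, Bowtie 1.1.1, TopHat, HTSeq and DESeq2 were used with mm10; annotation, filters and strand setting were not given in the sources used here. The authors deposited whole-number read counts for 23420 genes in a table of cultured lungs and a table of fresh lungs, and these counts were the input of every test; 0 sample columns were left out. The deposited normalized and log2 tables were not used.

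Counts were fitted with edgeR 4.0.16 in R 4.3.3 (TMM, filterByExpr by group, robust quasi-likelihood F-test, Benjamini-Hochberg over all genes). The 3 stages shared a fit. Low pressure and E12.5 were joined by symbol. SE is the log2 difference over the square root of F. The members and lists were chosen with earlier results of these data known. Named were all members and up to 4 genes of each list with the smallest p per comparison; further called genes of a list were named after their values were seen, and some genes are not reported here. Same-numbered fresh libraries deviated together (9 pairs, r 0.397 to 0.838), so the replicate number was used as a block beside the plain fit. Different-numbered fresh pairs ran from -0.736 to 0.625 (18 pairs), which overlaps that range. Within each stage, replicate 1 stood apart from replicates 2 and 3. Count differences relative to sampling noise (chi-square per degree of freedom) were 106 to 174 for pairs with replicate 1. They were 7.18 to 18.1 between replicates 2 and 3. Whether each number by itself pairs the libraries was not tested. Same-numbered cultured pairs did not deviate together (-0.0124 to 0.0461). Alternatives were other size factors, DESeq2, no filter, the block, all libraries in 1 fit and leaving out libraries. The fits were tested on simulated data.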

Additional observations from a re-analysis of the deposited data

How the results depend on the processing

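No member changed direction past the threshold under any alternative. For high against low pressure, 3905 genes passed, 1121 with all 15 libraries in 1 fit and 1894 to 6257 with a library left out, and members passing ranged from 0 to 2. For E13.5 against E12.5 the replicate block called 1 gene in place of 0. For E14.5 against E13.5 the calls were 0 genes, 270 with DESeq2, 856 with the replicate block (1 member) and 62 without replicate 1 of every stage. For E14.5 against E12.5 they were 0 genes, 457 with DESeq2, 9 without the filter, 1561 with the replicate block (2 members), 1119 without replicate 1 of every stage (2 of the 7 members tested there), and 0 to 3 with a library left out. The difference between the daily steps had 0 calls and 3 with the replicate block. For low pressure culture against E12.5, 3868 genes passed, 1577 to 6046 with a library left out, and members passing ranged from 0 to 1. Within the cultured libraries and between culture and E12.5 the replicate block changed no call of a member. Among the listed genes named above, the block ended the calls of Sox4, Slc18a2, Gfra4, Chga and Pgc for high against low pressure (adjusted p 0.0539 to 0.147), where 2 of 10 neuroendocrine genes and 0 of 15 transmitter genes then fell. It ended those of Tubb2b, Slc5a7, Ngfr, Nrtn and Barx1 for culture against E12.5 (adjusted p 0.0505 to 0.0662). Depth limits Phox2a most, with 1 to 17 reads in each fresh library. The settings without replicate 1 of every stage and the list counts without single libraries were chosen after seeing the data.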

Other observations

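The genes most like each member over the 15 libraries were found by Pearson's r of log2 CPM, given as a description because the libraries share groups, tables and depth. Ret was followed most closely by Unc5b (0.972), Clcn6 (0.971) and Fat1 (0.969), and Tubb3 by Klc1 (0.964), Gtpbp3 (0.955) and Oaf (0.943). Gfra1 was nearest to AF529169 (0.917), Pbx3 (0.861) and Hoxc4 (0.851), and Elavl4 to Nr2f1 (0.909), Dmtf1 (0.909) and Wdr48 (0.877). Phox2a was nearest to Mndal (0.878), Sox10 to Hsd11b2 (0.809), Elavl3 to Nfasc (0.761) and Stmn2 to Oxct1 (0.791). Between members, r ran from -0.519 for Elavl4 and Tubb3 to 0.657 for Phox2a and Ret.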
